A study of Mus musculus with 2 samples.

Results

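The genes described here are 34 genes of meiotic prophase, chosen by name, of 31057 genes listed in single-cell RNA data from the mouse ovary at postnatal day 2 (P2). They cover the synaptonemal complex, meiosis-specific cohesin, the formation and repair of meiotic DNA breaks, the entry into meiosis and the attachment of telomeres to the nuclear envelope. The question was which of these transcripts were still present in germ cells at day 2, and whether their level moved with that of Zp3, a zona pellucida gene that oocytes switch on as they enter folliculogenesis. Germ cells and somatic cells were compared within 2 libraries of untreated female mice of CD1 background. Each library was made from whole ovaries, 6 of them taken from 3 pups of 1 mother, so that individual pups cannot be told apart.

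In the fetal ovary, germ cells enter meiosis together, pair their chromosomes and exchange DNA between them. The synaptonemal complex is the protein ladder that holds paired chromosomes together. SYCP2 and SYCP3 form the axes along each chromosome, SYCP1 spans the gap as the transverse filament, and SYCE1, SYCE2, SYCE3 and TEX12 make up the central element. Around birth the complex disassembles and oocytes arrest at the diplotene stage, in which they remain until ovulation. The cohesin rings that join sister chromatids, with the meiotic subunits SMC1B, REC8, RAD21L and STAG3, are laid down before this arrest.

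Germ cells were those with UMIs (unique molecular identifiers, each counting 1 captured transcript) of at least 3 of the 6 genes Ddx4, Dazl, Figla, Ooep, Sohlh1 and Padi6, which together had to make up at least 0.1% of the cell's UMIs. None of the 34 genes was used in this choice. Of 3625 cells kept in library 1, 234 were germ cells and 3360 were somatic. Of 4353 cells kept in library 2, 687 were germ cells and 3518 were somatic. The 31 and 148 cells that met only 1 of the conditions were set aside. All 8 oocyte genes that were not part of the gate, among them Zp1, Zp2, Gdf9 and Nlrp5, were called higher in the germ cells. Their median log2 fold change was 7.42, and 29.8% of all genes tested were called higher. Germ cells had a median of 76783 UMIs in library 1 and 46910 in library 2, against 8343 and 5852 for somatic cells. Levels are therefore given as CPM, the UMIs of a gene per 1000000 UMIs, after all UMIs of the cells of a group in 1 library were summed. Of the barcodes, 21 occurred in both libraries. In droplet data, free RNA from lysed cells also adds UMIs to cells that do not express a gene. The somatic level of the 8 oocyte genes, which somatic cells should lack, was between 0.256% and 2.35% of the germ cell level in library 1 and between 0.556% and 2.00% in library 2, and serves as the reference for it below.

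The promoters of the genes are shown first, as some of the genes, both abundant and rare in germ cells, share a short sequence there. Promoter sequences from RefSeq (GRCm38.p6) were matched for 27 of the 34 genes, and Spo11, Tex11, Tex15, Meiob, Ythdc2, Majin and Terb2 were not analysed here. The motif CACGTG, which reads the same on both strands and is the E-box bound by the MAX family of factors, lay within the 250 bases before the start of 6 of the 27, or 22.2%. It lay in 6.02% of all 32851 promoters of the same length. The 6 genes were Sycp1, Sycp3, Syce2, Tex12, Stag3 and Hormad1, all of which were called higher in germ cells, as were 25 of all 34 genes. The motif was absent for Smc1b (512 and 565 CPM in germ cells of libraries 1 and 2) and Syce1 (235 and 223). It was present for Stag3 (8.94 and 8.01). A second motif, TCCCGC, searched on both strands as the core bound by E2F6, was in 13 of the 27 (48.1%) against 16.9% of all promoters. The median GC content was 58% in these promoters and 52.4% in all, and its part in these shares was not tested. A match is a description of the letters and not a bound site. Stretches of 60 bases around the E-box are given for the 4 genes where the stretch overlapped no annotated exon, 5′ to 3′ on the strand of the gene, with CACGTG in capitals. They lie at chr3:102936162-102936221 (minus strand) for Sycp1, chr10:88459496-88459555 (plus strand) for Sycp3, chr9:50561329-50561388 (minus strand) for Tex12 and chr3:95559593-95559652 (plus strand) for Hormad1. The Sycp3 stretch holds the motif at more than 1 place.
Sycp1: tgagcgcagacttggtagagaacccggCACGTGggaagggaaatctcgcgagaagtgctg
Sycp3: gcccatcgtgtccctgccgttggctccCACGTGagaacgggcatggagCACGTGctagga
Tex12: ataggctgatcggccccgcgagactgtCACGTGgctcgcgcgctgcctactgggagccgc
Hormad1: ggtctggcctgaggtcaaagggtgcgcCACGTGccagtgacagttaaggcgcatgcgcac

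Together the 34 genes contributed 3867 CPM in germ cells of library 1 and 3253 in library 2, against 142 and 158 in somatic cells. Of the 34, 31 had enough UMIs to be tested with edgeR's quasi-likelihood test on the sums per library. Of these, 25 were higher in germ cells at a Benjamini-Hochberg adjusted p under 0.05 and a change of over 2-fold, where 29.8% of all 16113 genes tested were higher. The somatic sums of many called genes were under the limit of the filter on low counts in both libraries. They were Sycp2, Syce3, Hormad1, Msh4, Spo11, Tex11, Rad21l, Meiob, Mei1, Mei4, Rnf212, Majin, Terb1 and Terb2. These genes were tested through their germ cells alone and could be called higher but not lower. They make up most of the 25, and they count in the median and among the folds below. Rec8 was lower, where 31.1% of all genes were lower. Dmc1, Msh5, Mlh3, Ythdc2 and Trip13 were tested and not called. Meioc, Stra8 and Spata22 had too few UMIs to be tested. The median log2 fold change of the 31 genes was 6.18, or 4.89 with Spo11 and Rad21l, which had no somatic UMI, at their lower bound. The median of all genes was 0.02. Of the 23 called genes with somatic UMIs, 13 were over 100-fold higher by the fit. Among them, Sycp2 and Msh4 had ratios in CPM of 99.3 and 96.9 over both libraries, on 6 and 8 somatic UMIs. The fitted log2 fold changes ran from 2.07 for Brca2 to 8.06 for Mei1. Transcript levels were thus spread over several orders of magnitude, with Sycp3 at the top and 11 genes in library 1 and 10 in library 2 under 5 CPM.

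**Figure D1:**
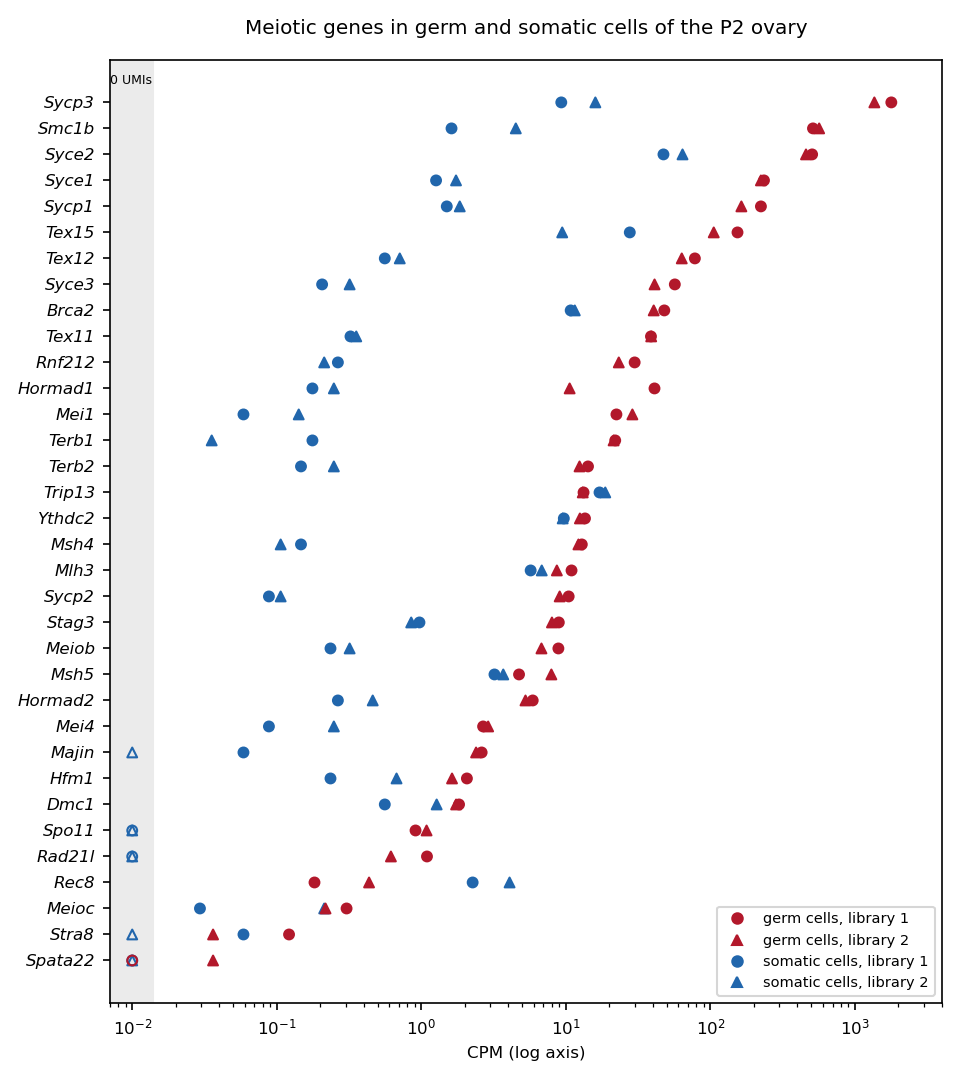
CPM (log axis) of each of the 34 genes in germ cells (red) and somatic cells (blue) of library 1 (circles) and library 2 (triangles), ordered by the germ cell mean. Open symbols on the grey band mark 0 UMIs. Sycp3 was the highest in germ cells, Rec8 was the one called gene whose somatic points lie to the right of its germ points, and the germ and somatic points of Trip13, Ythdc2 and Mlh3 lie close together.

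Among the axial and central elements of the synaptonemal complex, all 7 genes were higher in germ cells. Sycp3, which encodes the lateral element protein, had 1784 and 1362 CPM in germ cells of libraries 1 and 2, against 9.29 and 16.0 in somatic cells (log2 fold change 7.04 ± 0.40 SE, edgeR adjusted p = 0.000517). It alone made up 46.1% and 41.9% of the UMIs of the 34 genes. Sycp2, its partner in the axis, was far less frequent, at 10.5 and 9.06 against 0.088 and 0.106 (6.67 ± 0.37). The libraries agreed on this order, although 3′ tag counts are not an exact measure of how many molecules of different genes a cell holds.

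The transverse filament gene Sycp1 had 224 and 164 CPM in germ cells and 1.50 and 1.84 in somatic cells (6.94 ± 0.26). For the central element genes, Syce1 stood at 235 and 223 in germ cells (7.34 ± 0.23), Tex12 at 78.1 and 63.4 (6.88 ± 0.23) and Syce3 at 56.7 and 41.1 (7.62 ± 0.33). The somatic levels of these 3 central element genes were at most 1.74 CPM. Syce2 differed from these in its somatic level. It had 505 and 458 CPM in germ cells and 47.3 and 64.1 in somatic cells, a log2 fold change of 3.19 ± 0.21 (edgeR adjusted p = 0.000615). Its somatic level was 9.37% and 14.0% of the germ level, above every one of the 8 oocyte genes.

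The detection of single genes per cell gave the same picture. With every cell thinned to 2000 UMIs, Sycp3 was detected in 96.5% of 226 germ cells of library 1 (95% exact binomial interval 93.1% to 98.5%) and 86.2% of 609 in library 2 (83.2% to 88.8%). The somatic shares were 1.95% of 3335 cells and 2.92% of 3425 cells. Smc1b was detected in 65.9% and 63.4% of germ cells and in 0.27% and 1.23% of somatic cells. Sycp1 was detected in 36.3% and 25.6% of germ cells and in 0.42% and 0.38% of somatic cells. These intervals cover counting error only.

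The meiotic cohesin subunits were unequal. Smc1b, the meiotic form of the SMC1 ATPase, was the second most abundant of the 34 genes, at 512 and 565 CPM in germ cells against 1.62 and 4.50 in somatic cells (7.55 ± 0.61, edgeR adjusted p = 0.000936). Stag3, the meiotic stromal antigen subunit, had 8.94 and 8.01 against 0.971 and 0.851 (3.29 ± 0.29). Rad21l, a kleisin that closes the ring in early prophase, had 18 and 17 UMIs in all germ cells of each library and none in somatic cells, which over both libraries puts it at least 16.5-fold higher in germ cells.

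Rec8, the other meiotic kleisin, had 3 UMIs in germ cells of library 1 and 12 in library 2, or 0.182 and 0.435 CPM. Somatic cells had 2.26 and 4.08 CPM, higher than the germ cells of either library (log2 fold change -3.18 ± 0.61, edgeR adjusted p = 0.00852). With all cells thinned to 2000 UMIs, Rec8 had too few UMIs for this call. The general cohesin genes that also work in mitotic cells were fixed as a list of 9. Of these, 0 were called higher in germ cells by edgeR (0 at an unadjusted p under 0.05 and 0 by DESeq2) and 3 were called lower, namely Stag2 (-2.05), Pds5b (-1.69) and Stag1 (-1.61). Over all genes tested, 29.8% were higher and 31.1% lower, so that 3 lower of 9 is near the share of all genes. The median log2 fold change of the 9 was -0.76. The general kleisin Rad21 had 41.3 and 40.1 CPM in germ cells and 84.7 and 75.7 in somatic cells, a log2 fold change of -0.89 that lies within 2-fold.

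The HORMA domain proteins mark unsynapsed axes. Hormad1 had 41.0 CPM in germ cells of library 1 and 10.6 in library 2, against 0.176 and 0.248 in somatic cells (6.98 ± 0.94, edgeR adjusted p = 0.00306). As a ratio, the germ levels of the 2 libraries lay further apart than those of any other of the 34 genes above 5 CPM in both. Hormad2 had 5.90 and 5.26 in germ cells against 0.265 and 0.461 (4.02 ± 0.43). Trip13, the ATPase that removes HORMA proteins from the axis and acts on MAD2 in the mitotic checkpoint, had 13.3 and 13.1 in germ cells and 17.1 and 18.7 in somatic cells, a difference that was not called (-0.36 ± 0.16, edgeR adjusted p = 0.0994).

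Genes for the formation of meiotic DNA breaks were detected at low levels. Spo11, which encodes the enzyme that cuts the DNA, had 15 and 30 UMIs over all germ cells and 0 over all somatic cells, at least 21.2-fold higher in germ cells. Mei4, an axis-bound cofactor of cutting, had 2.67 and 2.90 CPM against 0.088 and 0.248 (4.14 ± 0.57). Mei1, also needed for breaks, was higher than these, at 22.4 and 28.8 against 0.059 and 0.142 (8.06 ± 0.41, edgeR adjusted p = 0.000458). Mei1 had the largest fitted fold change among the called genes, on 6 somatic UMIs in both libraries together.

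Of the genes for strand exchange and crossing over, Tex11, Tex15, Msh4, Rnf212, Meiob, Brca2 and Hfm1 were called higher in germ cells. Tex11, which promotes crossovers, had 38.8 and 38.9 CPM against 0.324 and 0.355 (6.91 ± 0.20). Rnf212, which stabilises crossover sites, had 29.9 and 23.2 against 0.265 and 0.213 (6.84 ± 0.28). Msh4, one partner of the MutS gamma pair, had 12.9 and 12.2 against 0.147 and 0.106 (6.65 ± 0.33). The other partner, Msh5, had 4.74 and 7.94 against 3.21 and 3.69 and was not called (0.97 ± 0.36, edgeR adjusted p = 0.0622), and the somatic level of Msh5 was above that of Msh4 in both libraries.

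Meiob, a single-strand DNA binding protein, had 8.88 and 6.78 CPM in germ cells against 0.235 and 0.319 (4.89 ± 0.39). Spata22, the partner of Meiob, had 1 UMI in all germ cells of both libraries and none in somatic cells. Tex15, needed for break repair in male meiosis, had 154 and 105 against 27.7 and 9.43 (2.90 ± 0.56, edgeR adjusted p = 0.00848). Brca2, which loads recombinases onto DNA in all dividing cells, had 48.0 and 40.5 against 10.8 and 11.5 (2.07 ± 0.15). The helicase gene Hfm1 had 2.07 and 1.63 against 0.235 and 0.674 (2.11 ± 0.60, edgeR adjusted p = 0.0291). Its call was lost with the library as a block (edgeR adjusted p = 0.0527). Dmc1, the meiotic recombinase, stood at 1.82 and 1.74 against 0.559 and 1.28 and was not called (1.04 ± 0.52, edgeR adjusted p = 0.13). Mlh3, which resolves crossovers and also serves mismatch repair, had 10.9 and 8.66 against 5.71 and 6.81, under the 2-fold limit.

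Regulators of the entry into meiosis were near the detection limit in the cells that passed the germ gate, with the exception of Ythdc2. A cell with only Dazl and Ddx4 of the 6 gate genes could not pass it. In library 2, 1 such cell with 11 Stra8 UMIs was set aside, and it is described below. Stra8, the retinoic acid target that starts meiosis, had 2 UMIs in germ cells of library 1 and 1 UMI in library 2. Meioc, which keeps cells in prophase, had 5 and 6 UMIs. Ythdc2, the RNA helicase that works with Meioc, had 13.6 and 12.5 CPM in germ cells and 9.68 and 9.50 in somatic cells (0.53 ± 0.17), within 2-fold of each other. The transcripts of meiotic prophase thus ranged from near 0 CPM for Stra8 to 1784 and 1362 CPM for Sycp3 in germ cells of libraries 1 and 2.

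The 3 genes that attach telomeres to the nuclear envelope were all higher in germ cells. Terb1 had 21.9 and 21.4 CPM against 0.176 and 0.035 (7.63 ± 0.48). Terb2 had 14.2 and 12.4 against 0.147 and 0.248 (6.15 ± 0.37). Majin, which anchors the complex in the membrane, had 2.61 and 2.39, and over both libraries 109 germ UMIs against 2 somatic UMIs. This is a ratio of 77.0 in CPM, with a 95% interval of 20.8 to 644.

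A further 30 meiotic genes that are not among the 34 were looked at as a list. All 30 were tested, and 23 were higher in germ cells by edgeR, where 29.8% of all genes were higher. Their median log2 fold change was 2.56 over the 30. None was lower, with 2 at an unadjusted p under 0.05 and 1 called by DESeq2. The largest were Meikin (7.18), a protector of centromeric cohesion, Ankrd31 (6.71) and Rec114 (6.14), both of which act in break formation, and Hsf2bp (6.47), which binds BRCA2. Of a list of 6 genes chosen as markers of pre-meiotic germ cells, 4 were higher and 1 was lower. The name is that of the list and not a stage assigned to these germ cells. Dppa5a (7.75), Pou5f1 (6.87) and Tfap2c (4.05) were among the higher ones, and Nanos3 was lower (-2.11). Of 10 mitotic genes, 7 were higher, led by Ube2c (3.51) and Birc5 (2.75), and 2 were lower, Top2a (-2.99) and Mki67 (-1.13). Over all genes 29.8% were higher and 31.1% lower, and the lower counts of these lists did not exceed that share.

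Somatic levels were then set beside those of the oocyte genes. Of the 25 genes called higher in germ cells, 15 had somatic levels that were no larger a share of the germ level than the highest of the 8 oocyte genes in both libraries, and 8 were above that share in both. This limit rests on few somatic UMIs, 7 of Bmp15 in library 1 and 2 of Oosp1 in library 2. Among the more abundant oocyte genes the highest shares were 0.504% (Gdf9, library 1) and 0.932% (Zp2, library 2). Sycp3, at 0.521% and 1.17%, was above these, as were Sycp1, Sycp2 and Tex12 in both libraries. Syce1, Msh4, Tex11, Rnf212, Terb1 and Majin were above them in library 1 only. Of the 15 genes, only Syce3, Smc1b, Mei1, Spo11 and Rad21l were within them in both libraries. Some of these shares rest on few somatic UMIs, such as 6 of Sycp2 and 2 of Majin over both libraries. Against the limit from all 8 oocyte genes, Hormad1 (0.430% and 2.34%) and Terb2 (1.03% and 2.00%) were above in library 2 only, Terb2 barely. The 8 genes above that limit in both libraries were Syce2, Tex15, Brca2, Stag3, Hormad2, Meiob, Mei4 and Hfm1. Somatic cells were sorted by their markers to see where these UMIs lay. In library 1, 1714 somatic cells carried mostly granulosa markers (51.0%) and 1409 mostly interstitial markers (41.9%). In library 2 these were 704 (20.01%) and 2500 (71.1%) cells. Mesothelial, endothelial, immune and erythroid ranges held between 0 and 60 cells in a library. The values below are descriptions of 2 libraries, with no test.

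Tex15 was highest in the granulosa range, at 41.2 and 19.7 CPM, against 7.23 and 4.53 in the interstitial range. The higher somatic level of Tex15 in library 1 went with the larger share of granulosa cells there, and within the granulosa range library 1 was still the higher one. Syce2 showed the opposite order, with 25.9 and 43.8 in the granulosa range and 88.7 and 78.3 in the interstitial range. Trip13 followed the order of Syce2, at 11.0 and 10.6 in the granulosa range and 29.2 and 24.7 in the interstitial range. Rec8 was found in the granulosa range (3.29 and 9.51) and the mesothelial range (3.10 and 12.1), the latter on 2 and 10 UMIs. In the interstitial range it had 1 and 2 UMIs in all. Dmc1 had 17 and 34 UMIs in the interstitial range (1.66 and 2.14 CPM) and 2 and 0 in the granulosa range. Sycp3 in contrast was alike in both, at 9.43 and 16.7 in the granulosa range and 8.41 and 15.5 in the interstitial range, and was the higher in library 2 in both ranges.

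**Figure D2:**
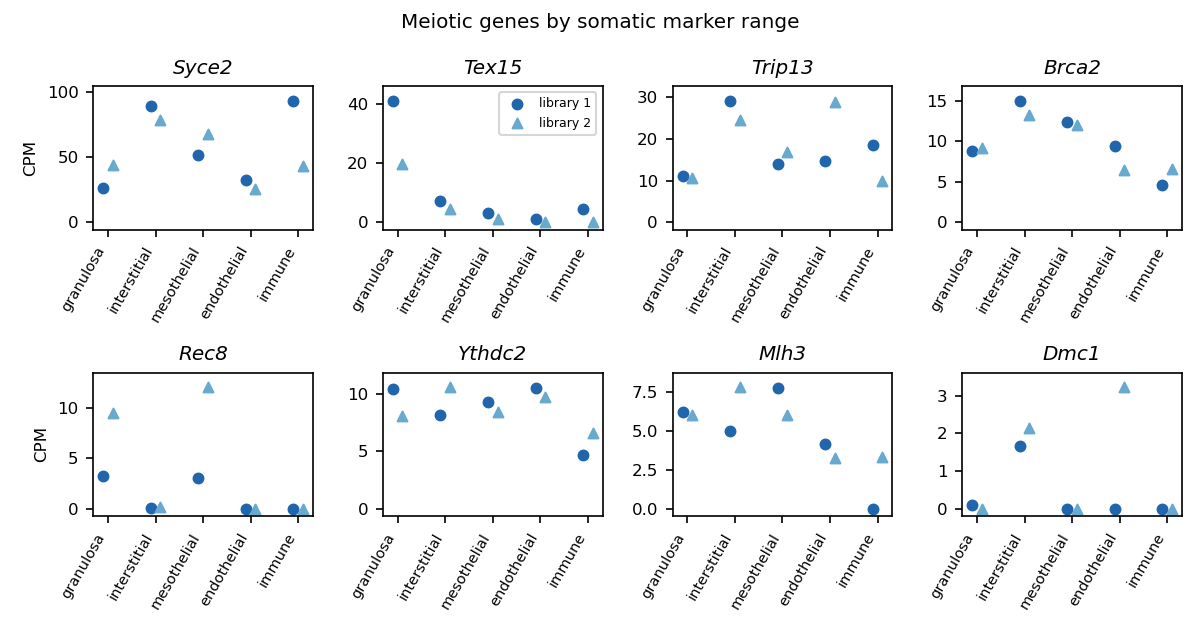
CPM of 8 of the genes in somatic cells sorted by their markers into granulosa, interstitial, mesothelial, endothelial and immune ranges, for library 1 (circles) and library 2 (triangles). Tex15 was highest in the granulosa range in both libraries, Rec8 was near 0 outside the granulosa and mesothelial ranges, and Syce2 and Trip13 were higher in the interstitial than in the granulosa range.

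Since several of these proteins also act in dividing cells, somatic cells with UMIs of at least 2 of 10 mitotic genes were compared with the other somatic cells, each cell thinned to 2000 UMIs. There were 536 and 644 cycling cells and 2799 and 2781 others. Of the 34 genes, 9 were tested and 2 were higher in cycling cells at an adjusted p under 0.05, where 3.16% of 11598 genes were higher. Trip13 had 8.57 and 9.17 CPM in other cells and 49.4 and 57.5 in cycling cells (2.60 ± 0.22, edgeR adjusted p = 0.00161). Syce2 had 35.4 and 48.5 in other cells and 122 and 120 in cycling cells (1.53 ± 0.20, edgeR adjusted p = 0.0118). The cycling cells of either library were above the others of both libraries in these genes. This order also held for the uncalled Brca2 and Msh5, and its share over all genes is not given here. Brca2 had 9.47 and 7.01 in other cells and 21.5 and 20.2 in cycling cells. It was not called (1.34 ± 0.29, edgeR adjusted p = 0.0819), but was with the library as a block (edgeR adjusted p = 7.24e-05), where 9.92% of all genes were higher. Sycp3, Smc1b, Msh5, Mlh3, Tex15 and Ythdc2 were tested and not called. By edgeR 0 of the 9 were lower, as were 0.181% of all genes (8.08% with the block, which also called 0 of the 9). DESeq2 called 0, and 1 gene, Mlh3 (-1.22 ± 0.48), was lower at an unadjusted p under 0.05.

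**Figure D3:**
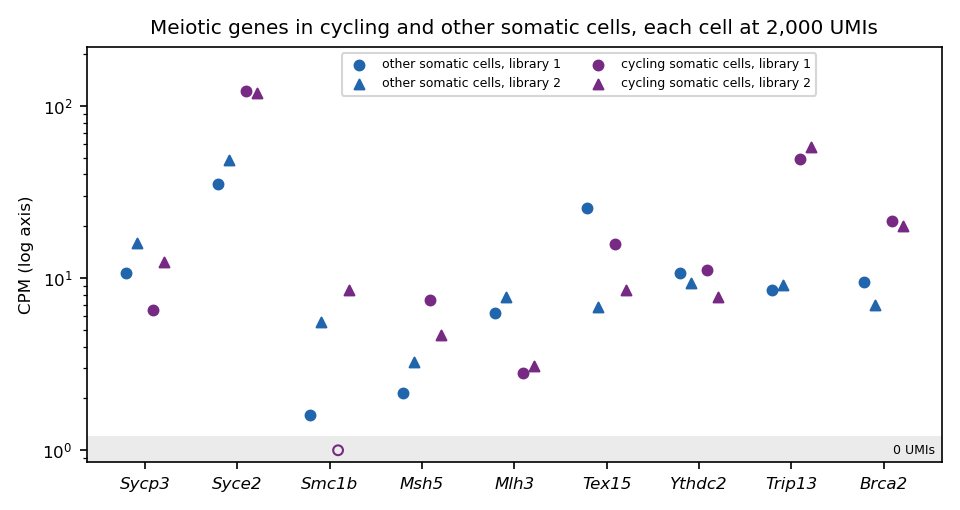
CPM (log axis) of the 9 tested genes in cycling (purple) and other (blue) somatic cells of library 1 (circles) and library 2 (triangles), with each cell thinned to 2000 UMIs. The open symbol on the grey band marks 0 UMIs. Trip13 was at 8.57 and 9.17 in other cells and at 49.4 and 57.5 in cycling cells, and the points of Syce2 and Brca2 lie higher in the cycling cells of both libraries.

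In the same comparison, 5 of 15 tested genes of the further meiotic list were higher in cycling cells, among them Sgo2a (5.78), Brip1 (3.45) and Brca1 (2.90). With the library as a block 10 of the 15 were. Of the 9 general cohesin genes, Rad21 was higher (1.87), and 4 of the 9 were with the block. The 10 mitotic genes chose the cells, and all 10 were called. Of the oocyte genes outside the gate and the pre-meiotic genes, 3 each were tested and 0 were called by edgeR or DESeq2, with 0 at an unadjusted p under 0.05.

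The germ cells themselves were then compared by their level of Zp3. Germ cells with at least 10000 UMIs were thinned to 10000 each, so that all were read at equal depth. Zp3-low cells had 0 to 1 Zp3 UMIs (27 cells in library 1 and 129 in library 2), middle cells 2 to 9 (85 and 211) and Zp3-high cells at least 10 (102 and 116). Before thinning, the median depth rose with the range, from 50101 and 50018 UMIs in Zp3-low to 92591 and 71596 in Zp3-high cells. The mean share of mitochondrial UMIs went from 3.29% and 3.51% down to 2.38% and 2.42%. The 7 granulosa markers together had 215 and 144 CPM in Zp3-low cells and 13.7 and 131 in Zp3-high cells, so that they differed with the range mainly in library 1. Interstitial markers had 55.6 and 84.5 in Zp3-low and 20.6 and 66.4 in Zp3-high cells. The part of depth and of these markers in the results below was not tested. Zp3 sorted the cells and is left out of its list here. Of the other 7 oocyte genes outside the gate, 5 were tested and all 5 were higher in Zp3-high cells, with a median log2 fold change of 2.01.

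The summed level of the 34 meiotic genes was 3652 and 3526 CPM in Zp3-low cells, 4028 and 3241 in middle cells and 3757 and 3184 in Zp3-high cells. Of the 34 genes, 22 were tested between the high and the low range, and 0 were higher and 0 were lower by edgeR's quasi-likelihood test, where 3.71% of 8889 genes were higher and 1.65% lower. DESeq2 also called 0. At an unadjusted p under 0.05 there were 2 with higher values (Smc1b and Brca2) and 4 with lower values (Sycp1, Syce1, Tex11 and Meiob), where 21.7% of all genes passed that p in either direction. Of the 22 genes, 19 (86.4%) lay within 2-fold, as did 90.2% of all genes. The median size of the change was 0.45 on the log2 scale, against 0.34 for all genes. The 22 passed a filter on low counts, and the other 12, with few UMIs in a range, were not tested.

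Pairing by library changed this result. Cells of the 3 ranges came from the same pups, and with the library as a replicate block 1 of the 22 genes was higher (Smc1b) and 5 were lower (Sycp1, Syce1, Hormad1, Tex11 and Meiob) in Zp3-high cells. In that fit, 9.93% of all genes were higher and 7.55% lower. With only 2 libraries, it takes the spread mostly from values pooled over genes. Its small p-values therefore say little about differences between litters. The values of these 6 genes by range are therefore given in full.

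Sycp1 had 348 and 229 CPM in Zp3-low cells, 287 and 163 in middle cells and 159 and 104 in Zp3-high cells. Each library stepped down from range to range, and the Zp3-high cells of both libraries lay below the Zp3-low cells of both. The log2 fold change was -1.04 ± 0.28 (edgeR adjusted p = 0.0516), and -1.12 ± 0.14 with the block (edgeR adjusted p = 7.19e-11). Syce1, its neighbour in the central region, had 267 and 267 in Zp3-low, 240 and 233 in middle and 197 and 185 in Zp3-high cells (-0.45 ± 0.14, edgeR adjusted p = 0.0797, and 0.00426 with the block).

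Hormad1 had 96.3 and 15.5 CPM in Zp3-low, 52.9 and 10.4 in middle and 31.4 and 1.72 in Zp3-high cells. The last of these values rests on 2 UMIs. The Zp3-high cells of library 1 were above the Zp3-low cells of library 2, and the fit without the block gave -1.20 ± 1.04 (edgeR adjusted p = 0.55). With the block the log2 fold change was -1.76 ± 0.36 (edgeR adjusted p = 8.5e-05). Tex11 went from 51.9 and 58.1 over 37.6 and 40.8 to 32.4 and 32.8 (-0.76 ± 0.24, edgeR adjusted p = 0.0856, and 0.0296 with the block). Meiob had 25.9 and 17.1 in Zp3-low, 15.3 and 4.74 in middle and 6.86 and 6.03 in Zp3-high cells (-1.54 ± 0.60, edgeR adjusted p = 0.158, and 0.0142 with the block). Its values rest on few UMIs, 7 and 22 in Zp3-low and 7 and 7 in Zp3-high cells. For Tex11 and Meiob, as for Sycp1, Syce1 and Smc1b, the ranges high and low did not overlap between libraries. The same was true of Syce3, Rnf212 and Mei1, which were not called. The share of all genes that did so is not given here, so this does not set these genes apart.

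Smc1b was the one gene with the opposite order among these 6. It had 359 and 492 CPM in Zp3-low, 439 and 564 in middle and 543 and 634 in Zp3-high cells (0.46 ± 0.17, edgeR adjusted p = 0.151, and 1.15e-05 with the block). In each library the level stepped up from range to range, and library 2 lay above library 1 throughout.

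Sycp3 and Syce2 showed no steady step across the ranges that both libraries shared. Sycp3 had 1496 and 1467 CPM in Zp3-low, 1968 and 1373 in middle and 1734 and 1341 in Zp3-high cells (0.09 ± 0.15, edgeR adjusted p = 0.779). Syce2 had 493 and 507 in Zp3-low, 461 and 423 in middle and 523 and 493 in Zp3-high cells (0.05 ± 0.11, edgeR adjusted p = 0.829). The remaining tested genes had log2 fold changes between -0.59 for Syce3 and 0.71 for Brca2, with standard errors of 0.28 to 0.63. For the rarer ones among them a change of 2-fold was within 2 standard errors, so that it could not be seen at this depth.

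**Figure D4:**
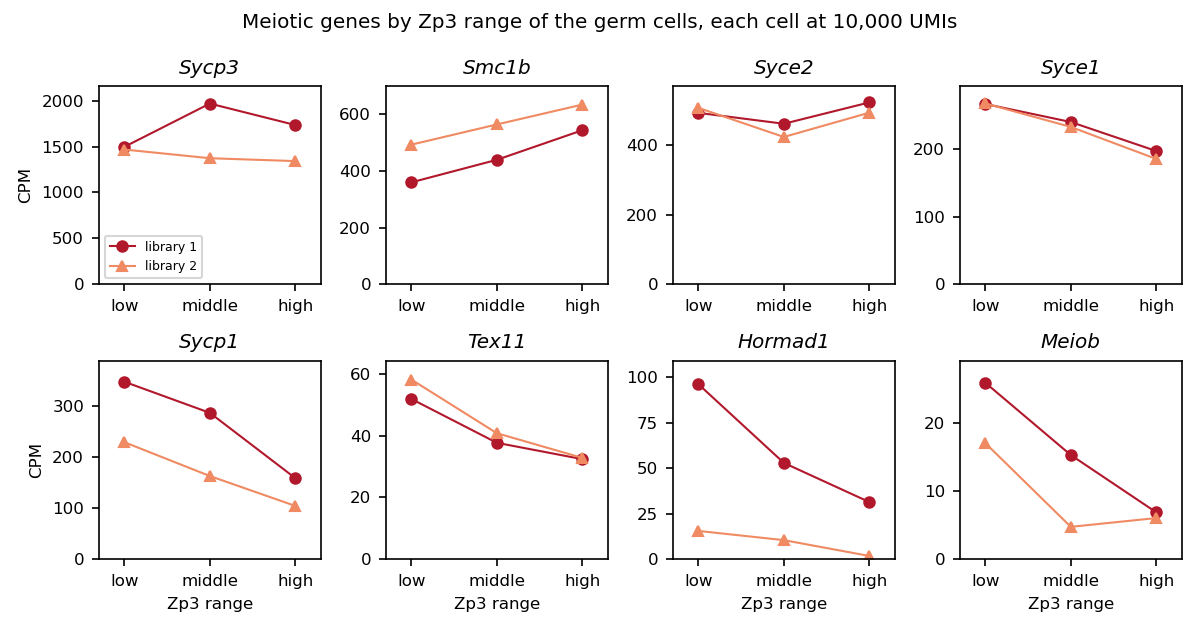
CPM of 8 of the genes in Zp3-low, middle and high germ cells of library 1 (circles) and library 2 (triangles), with each germ cell thinned to 10000 UMIs and the vertical axes starting at 0. Sycp1, Syce1, Tex11 and Hormad1 stepped down and Smc1b stepped up with the Zp3 range in both libraries, while Sycp3 moved in opposite directions in the 2 libraries.

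Single germ cells held about as many of the 34 transcripts in each range. At 10000 UMIs per cell, the median number of the 34 genes with a UMI was 10 and 8 in Zp3-low, 9 and 8 in middle and 9 and 8 in Zp3-high cells of libraries 1 and 2. The median number of UMIs of the 34 genes per cell was 35 and 33, 40 and 32, and 36 and 31. Every germ cell read at this depth had UMIs of at least 3 of the genes.

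**Figure D5:**
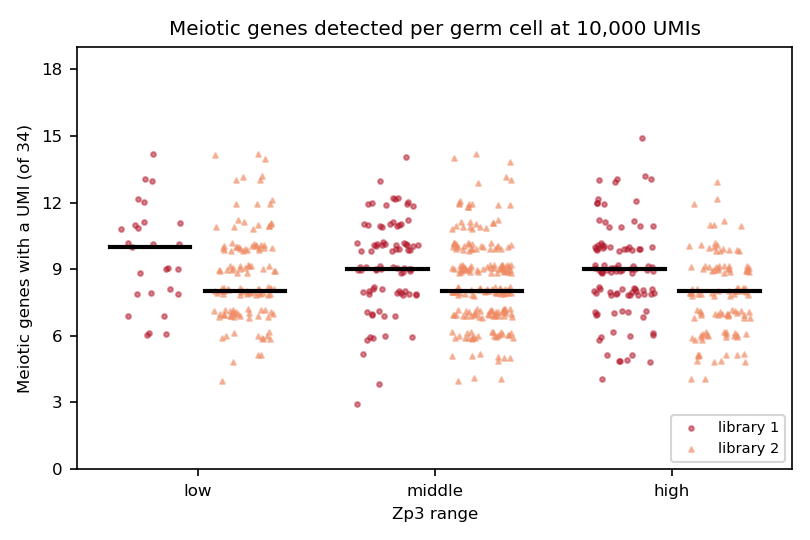
Number of the 34 genes with a UMI in each germ cell (points, 10000 UMIs per cell, spread sideways and slightly up and down so that they can be seen apart) by Zp3 range and library, with the median as a black line. The medians lie between 8 and 10 in every range.

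Of the lists set beside these genes, the further meiotic, general cohesin and mitotic lists gave few calls across the Zp3 ranges. Of the further meiotic genes, 25 were tested and 1 was called lower by edgeR, where 1.65% of all genes were lower. It was 4930447C04Rik (-1.33), a gene of the synaptonemal complex central region. DESeq2 called 0 of the 25. With the block 2 were higher, Mnd1 and Psmc3ip, and 2 were lower, 4930447C04Rik and Cdk2. These counts are near the shares of all genes in that fit, 9.93% higher and 7.55% lower. Without the block, 21.7% of all genes had an unadjusted p under 0.05. Of the 9 general cohesin genes 0 were called by edgeR or DESeq2, with 2 at an unadjusted p under 0.05, and Smc1a was lower with the block (-0.77). Of the 10 mitotic genes 0 were called by edgeR or DESeq2, with 3 at an unadjusted p under 0.05, and Birc5 was higher with the block (0.48). Of the pre-meiotic list only Pou5f1 (1.89) and Dppa5a (2.13) were tested, and both were higher in Zp3-high cells. The tested oocyte genes were higher there too, and whether these 2 genes mark a pre-meiotic state here was not tested.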

How the data were processed

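Whole ovaries of postnatal day 2 mice were dissociated by the authors, 6 ovaries of 3 pups of 1 mother per library, and sequenced as 2 single-cell libraries with Chromium 3′ kits (version 2 per the labels and version 3 per the study's methods, a conflict that could not be settled). The deposited values are raw UMI counts, whole numbers for each gene in each cell, which the authors made with Cell Ranger 3.0.2 against GRCm38 per the submitters' processing notes. The counts are not normalized and held 54471790 and 59074480 UMIs in 4094 and 4847 barcodes. Levels are CPM (UMIs per 1000000) of sums over cells, so counting error is small for abundant genes and large for genes with few UMIs.

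A cell was kept if it had 500 or more genes and no more than 10% of its UMIs from mitochondrial genes (3738 and 4464 cells). Cells with a Scrublet score (scanpy 1.11.5) of at least 0.2 were removed as doublets (3.02% and 2.49%), which left 3625 and 4353. The Scrublet cut was fixed at 0.2, where the automatic ones were 0.225 and 0.521. UMIs were summed per library and cell group, since cells are not replicates, and tested over all genes with edgeR 4.0.16 (filterByExpr, TMM, quasi-likelihood test, R 4.3.3, Benjamini-Hochberg adjustment). The standard error was taken as the size of the log2 fold change divided by the root of F. DESeq2 1.42.0 was an alternative. The code was tested on simulated data. A fold against 0 somatic UMIs is a lower bound from 3 UMIs over both libraries.

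Germ and somatic cells of a library come from the same pups, so the library pairs the sums. Deviations from the group means correlated within a library by 0.0549 (germ against somatic), 0.136 (Zp3 ranges) and 0.481 (cycling). The fit without the block is the one given unless stated. Somatic cells were put in the marker range (granulosa, interstitial, mesothelial, endothelial, immune or erythroid) with the most detected markers, at least 3. The 34 genes, the further lists and the rules were chosen with earlier results of these data known. All 34 genes are accounted for. Those called in the germ or Zp3 comparison are named with their values. Of each further list, up to 4 were named as a rule, those with the largest change among the called. Mki67, Zp2, Nlrp5, Bmp15 and Oosp1 were named although other called genes of their lists had larger changes. Rad21, the list genes called with the block, and the genes that mark single cells were named after their values were seen. The study's own cell filters were not used here. The values of 1 gene of the further meiotic list are not reported here.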

Additional observations from a re-analysis of the deposited data

Results flagged for a closer look

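The cells that met only 1 germ condition entered no main comparison, only the alternative with all other cells as somatic. They held 2 signals above the level of somatic cells. In library 2, 1 such cell had 11 Stra8 UMIs, while all other kept cells of both libraries together had 5. This cell had 2959 UMIs and 1144 genes. It carried 15 Dazl and 1 Ddx4 UMIs, which made up 0.541% of its UMIs, and no UMI of the other 4 gate genes or of Zp3. It also had 13 Sycp3, 4 Smc1b, 3 Tex12, 2 Hormad1 and 2 Syce2 UMIs and 1 UMI each of Sycp1, Rec8, Meioc, Meiob, Hfm1 and Majin. The 10 mitotic and 6 pre-meiotic genes had 0 UMIs in it. Its doublet score was under 0.2.

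Sycp3 stood at 143.62 CPM in the 148 cells of library 2 that met 1 condition only, between 16.0 in somatic and 1362 in germ cells of that library. In library 1 it was 61.5 in 31 such cells. Their median depth was 14199 UMIs in library 1 and 1042 in library 2.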

How the results depend on the processing

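Of the 25 genes higher in germ cells, all 25 remained with library sizes in place of TMM, DESeq2, no filter on low counts, doublets kept, no filter on cells, a stricter germ gate, all other cells as somatic, and germ cells of at least 10000 UMIs (an alternative chosen after seeing the data). With the replicate block 24 remained, without Hfm1. Thinned to 2000 UMIs, 19 remained, and Spo11, Rad21l, Meiob, Mei4, Hfm1 and Majin were lost, with fewer UMIs and genes tested. Rec8 was lost there too, so that 0 genes were lower. With 1 library left out there is no test, and counts are of genes past 2-fold: between 26 and 26 higher and between 1 and 1 lower in germ cells, between 0 and 1 higher and between 3 and 4 lower in Zp3-high cells, and between 3 and 4 higher in cycling cells. In the Zp3 comparison, the replicate block gave 1 higher and 5 lower, against 0 and 0 in the main fit. No filter on low counts gave 1 higher and 2 lower (Sycp1 and Hormad1). Doublets kept gave 1 lower (Sycp1), and so did Zp3 ranges of about equal cell numbers within each library (Sycp1). Unthinned sums gave 2 lower (Syce1 and Tex11). Thinning to 5000 or 20000 UMIs, library sizes and DESeq2 gave 0 and 0. In cycling cells, no filter left 1 gene (Trip13) in place of 2, and 3 were called with the replicate block or unthinned. Over all genes, the block raised the calls from 330 higher and 147 lower to 883 and 671 (Zp3) and from 367 and 21 to 1150 and 937 (cycling). The block changed no other call of the 34 genes. Signs turned only for uncalled genes. With 20000 UMIs they were Sycp2 (-0.0709), Sycp3 (-0.0579), Stag3 (0.0250), Mlh3 (-0.563), Ythdc2 (-0.0081) and Terb1 (-0.0410). With 5000 UMIs they were Sycp3 (-0.0985), Syce2 (-0.0154) and Tex12 (0.0714), and with ranges of about equal cell numbers Sycp3 (-0.0658), Stag3 (0.0223) and Ythdc2 (-0.0717). With doublets kept they were Sycp2 (-0.0468), Ythdc2 (-0.166) and Terb1 (-0.107), and unthinned Mlh3 (-0.291) and Ythdc2 (-0.0461 by Zp3 and 0.0992 in cycling cells). Library sizes turned Ythdc2 (-0.0195) and the block Terb1 (-0.0528). The causes were not tested. The 27 Zp3-low cells of library 1, and 2 libraries in all, limit the precision.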

Other observations

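Germ cells under 10000 UMIs, which the Zp3 comparison left out, numbered 20 in library 1 and 231 in library 2. Sycp3 had 183 UMIs (2950 CPM) in those of library 1 and 964 UMIs (1239 CPM) in those of library 2, against 1780 and 1365 CPM in the deeper germ cells. Smc1b had 564 and 540 CPM against 512 and 566, and Syce2 had 580 and 325 against 505 and 462. Stra8, Meioc, Rec8 and Spata22 had 0 UMIs in the shallow germ cells of both libraries. In all, the 34 genes had 5690 and 2900 CPM there, out of 62040 and 778213 UMIs, so that the value of library 1 rests on few cells.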
